A study of Mus musculus with 6 samples.

Results

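Interleukins and their receptors were examined in the RNA of interscapular brown adipose tissue from Beclin1_KO and WT mice. The members are the genes whose symbol starts with Il and a digit, which gave 64 of the 18507 genes of the deposited table. They comprise 23 ligands, 34 receptor chains, 5 antagonists, decoys or binding proteins, the enzyme gene Il4i1 and the antisense RNA gene Il1bos. The knockout group held 3 mice labelled Beclin1-/-, which the series title calls adipocyte-specific, and the control group 3 wild-type mice. Both groups were on the C57BL/6 background, ate standard chow at 22 °C, and were given tamoxifen by gavage at 75 mg/kg on 5 days to activate Cre, although a treatment tag of every sample reads untreated. No source used here gives the promoter that drives Cre, or the age or sex of the mice. The RNA came from whole tissue, so cells in which Cre does not act also contribute.

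Interleukins are secreted proteins through which leukocytes, stromal cells and fat cells signal to each other. Most act through receptors of several chains, in which a private chain recognises the ligand and a shared chain, such as the common gamma chain (Il2rg), gp130 (Il6st) or Il17ra, completes the signal. Receptors of the IL-1 and IL-17 families work through adaptor proteins and NF-kB, whereas most others work through JAK kinases and STAT factors. Soluble antagonists and decoy receptors limit several of these signals. In adipose tissue they are best known from exchanges between macrophages, lymphocytes and adipocytes.

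Total counts were 50536315, 53789848 and 60983193 in the Beclin1_KO libraries and 44269031, 50219212 and 50842488 in the WT libraries. Levels below are CPM, a gene's counts relative to the TMM-scaled total of its library. Becn1 itself stood at 58.0, 53.7 and 42.7 CPM in Beclin1_KO and at 82.8, 86.4 and 89.2 CPM in WT (edgeR adjusted p = 0.00411). Cell type markers differed widely between the groups, and their part in the values of the interleukin genes was not tested. All 10 macrophage markers were higher in Beclin1_KO, with summed levels of 4070 to 6821 CPM in Beclin1_KO and 282 to 360 CPM in WT. Of 8 T cell markers 7 were higher, with sums of 36.9 to 65.6 CPM in Beclin1_KO and 5.82 to 10.1 CPM in WT, and all 7 NK cell markers were higher, with 35.5 to 43.1 CPM in Beclin1_KO and 2.34 to 4.55 CPM in WT. Mast cell markers (6 of 8 higher and 1, Hdc, lower) summed to 92.0 to 141 CPM in Beclin1_KO and 24.7 to 41.6 CPM in WT. Markers of fibroblasts and progenitors (4 of 5 higher) summed to 2687 to 4613 CPM in Beclin1_KO and 512 to 760 CPM in WT. None of 6 B cell markers was higher, 2 were lower and 2 were not tested. Their sums overlapped, with 3.44 to 6.30 CPM in Beclin1_KO and 2.68 to 5.67 CPM in WT. Dendritic cell markers (4 of 5 higher, 1 lower) summed to 31.2 to 34.0 CPM in Beclin1_KO and 27.5 to 33.9 CPM in WT. Of 8 neutrophil markers 1, Csf3r, was higher. All 8 together summed to 24.6 to 41.1 CPM in Beclin1_KO and 4.54 to 9.95 CPM in WT. Most of the knockout sum was Csf3r, with 38.0, 23.0 and 19.9 CPM in Beclin1_KO and 2.78, 3.37 and 2.37 CPM in WT. S100a8, S100a9 and Cxcr2 did not pass (edgeR adjusted p = 0.739, 0.391 and 0.804). Ly6g of the same list was not tested, with 0 counts in every knockout library and 0, 0 and 5 counts in WT. Eosinophil markers (2 of 3 higher) summed to 6.37 to 7.51 CPM in Beclin1_KO and 0 to 0.312 CPM in WT. All 7 adipocyte markers were lower (7750 to 14099 CPM in Beclin1_KO, 27918 to 32825 CPM in WT), as were 4 of 5 endothelial markers. In whole tissue, fewer cells of a type and less RNA per cell cannot be told apart. Skeletal muscle markers varied widely within both groups and were highest in the first knockout library and the second WT library.

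Interleukin and receptor transcripts were mostly more abundant in Beclin1_KO tissue. All members together summed to 1333, 1454 and 1650 CPM in the knockout libraries and to 549, 527 and 506 CPM in the WT libraries. A filter on low counts left 48 members to test, of which 35 were higher, 2 were lower and 11 did not pass (edgeR quasi-likelihood test, adjusted p below 0.05 over all genes). Of all 15347 genes tested, 46.6% passed, with 24.8% higher and 21.8% lower. The median log2 fold change was 2.13 over the tested members and 0.05 over all genes tested. Members passing with at least a 2-fold change were 32 higher and 1 lower, against 17.4% and 9.39% of all genes tested. Groups did not overlap for 39 tested members, with the knockouts above in 37 (31.4% of all genes tested) and below in 2 (28.2%). These shares describe the members that could be tested: 9 members reached 10 counts in every library in Beclin1_KO only, and such genes enter the test through the group in which they are high. Of these 9, Il1r2, Il18r1, Il10, Il12b, Il12rb1 and Il4i1 were called higher, and Il27, Il31ra and Il1a did not pass. Among the 37 members with at least 10 counts in every library of both groups, 29 were higher, 2 were lower and 6 did not pass. Of the 16 untested members, 13 had a sum of at most 50 counts over the 6 libraries, and 1, Il6, was abundant in a single library.

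**Figure D1:**
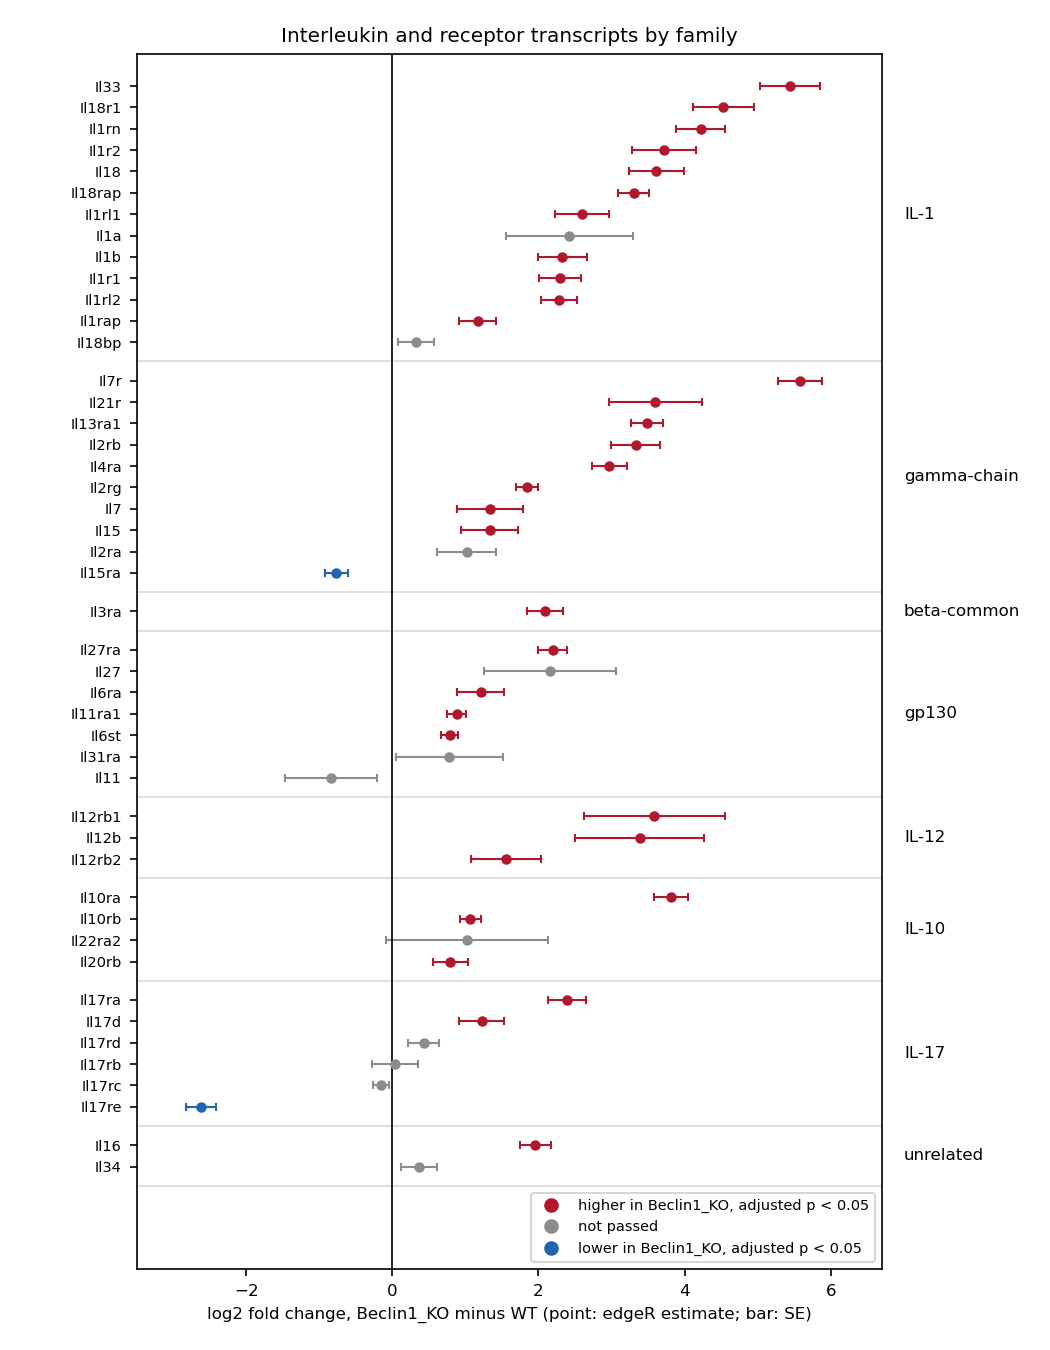
Log2 fold changes of 46 tested members, Beclin1_KO minus WT, grouped by receptor or ligand family on the y axis, with points for the edgeR estimate and bars for its SE. The points lie to the right of 0 except for Il17re at -2.61, Il11, Il15ra at -0.77 and Il17rc, which lies above 0 on the FPKM scale, and Il10 and Il4i1, with 0 counts in every WT library, are not drawn.

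Among the ligands, Il6 showed the most uneven pattern. It encodes interleukin 6, which signals through Il6ra and gp130 to STAT3 and drives acute-phase genes. Il6 had 6, 18 and 5550 counts in the Beclin1_KO libraries and 0 counts in each WT library, or 0.109, 0.281 and 81.9 CPM in Beclin1_KO. The third knockout library was thus 292-fold above the second, and the first 2 knockout libraries were near the floor of 3 counts (0.0544 and 0.0468 CPM). No other gene of the table reached 5 CPM in that library while being at least 10 times every other library. The same rule gave 1 gene in the first knockout library and 8 in the second, and 1, 1 and 0 in the WT libraries. The low-count filter removed Il6, and without the filter its edgeR adjusted p was 0.222 (0.102 to 0.245 over the other edgeR alternatives that tested it), so no difference between the genotypes can be stated for it. In the authors' deposited table Il6 has a signed fold change of 6400 and no p-value. Without the third knockout library the remaining knockout values are 6 and 18 counts.

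Genes known to respond to IL-6 did not share one order among the knockout libraries. Of the 13 acute-phase and IL-1 or IL-6 response genes listed, 9 had their highest knockout level in the third library, while Saa3, Fga and Fgg had their lowest there (Saa3 had 3.09, 3.49 and 2.43 CPM in Beclin1_KO and 0 in WT). Socs3, a feedback inhibitor that STAT3 induces, had 58.2, 81.3 and 167 CPM in Beclin1_KO and 10.1, 6.897 and 6.20 CPM in WT. Stat3 had 250, 286 and 412 CPM in Beclin1_KO and 107, 116 and 105 CPM in WT. The acute-phase gene Hp had 1719, 1856 and 4315 CPM in Beclin1_KO and 1777, 1910 and 1281 CPM in WT, and Ptx3 8.28, 5.27 and 38.4 CPM in Beclin1_KO and 0.242, 3.37 and 0.237 CPM in WT. Ptx3 did not pass (edgeR adjusted p = 0.0900), but passed without WT replicate 2 (0.0187), where its log2 fold change was 6.15, against 3.75 with all libraries and 2.39 without Beclin1_KO replicate 3. Socs3 and Stat3 were above WT in the other knockout libraries too. Hp lay inside the WT range in those libraries and did not pass (edgeR adjusted p = 0.206). The receptor chain Il6ra was at its lowest knockout level in the third library, at 16.03 CPM. How many of all genes were highest in the third library was not counted, and the part of Il6 in these values was not tested.

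**Figure D2:**
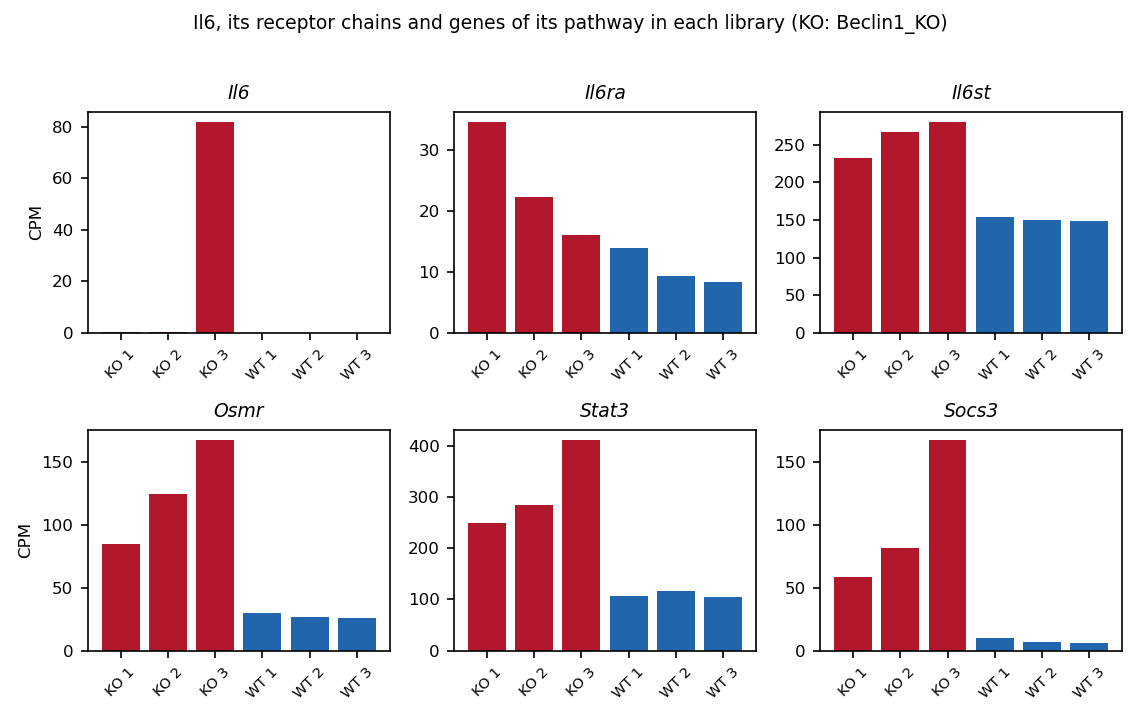
CPM of Il6, its receptor chains Il6ra and Il6st, and Osmr, Stat3 and Socs3 in each library, with replicates 1 to 3 of Beclin1_KO left of those of WT. Il6 is visible only in the third knockout library (81.9 CPM), where Socs3 (167 CPM) and Stat3 (412 CPM) are also at their highest.

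The sequence upstream of Il6 is shown with those of 4 further members because they mark the range of responses: Il7r with a fold change among the highest of members detected in WT, Il4ra with the highest CPM of any receptor in a knockout library, Il1b as the classical inflammatory ligand, and Il17re with the lowest fold change. Each line gives the part of the RefSeq promoter window that lies before the first base of the gene, up to 250 bases, 5′ to 3′ along the gene's strand, in build GRCm38.p6, and capitals mark matches to the motifs described after the sequences. The windows are chr5:30012864-30013113 (+) for Il6, chr2:129371165-129371389 (-) for Il1b, chr15:9529942-9530126 (-) for Il7r, chr7:125552021-125552270 (+) for Il4ra and chr6:113458521-113458698 (+) for Il17re.
Il6: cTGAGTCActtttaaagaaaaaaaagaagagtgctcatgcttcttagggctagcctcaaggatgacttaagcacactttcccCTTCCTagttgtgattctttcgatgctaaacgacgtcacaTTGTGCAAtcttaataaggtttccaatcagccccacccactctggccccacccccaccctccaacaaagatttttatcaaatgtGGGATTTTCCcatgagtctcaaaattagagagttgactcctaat
Il1b: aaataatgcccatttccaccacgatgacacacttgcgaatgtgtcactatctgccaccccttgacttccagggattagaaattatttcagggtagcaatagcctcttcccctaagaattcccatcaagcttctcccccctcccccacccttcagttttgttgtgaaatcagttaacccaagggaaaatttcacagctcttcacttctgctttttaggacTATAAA
Il7r: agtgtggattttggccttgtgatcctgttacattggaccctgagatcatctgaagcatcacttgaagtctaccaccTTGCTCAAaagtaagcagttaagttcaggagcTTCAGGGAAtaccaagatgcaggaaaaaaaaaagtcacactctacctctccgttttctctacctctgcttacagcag
Il4ra: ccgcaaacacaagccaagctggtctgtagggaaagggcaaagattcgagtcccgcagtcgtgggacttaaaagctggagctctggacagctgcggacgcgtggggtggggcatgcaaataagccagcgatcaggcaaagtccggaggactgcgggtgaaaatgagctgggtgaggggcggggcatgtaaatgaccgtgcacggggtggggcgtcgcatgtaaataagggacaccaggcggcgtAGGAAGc
Il17re: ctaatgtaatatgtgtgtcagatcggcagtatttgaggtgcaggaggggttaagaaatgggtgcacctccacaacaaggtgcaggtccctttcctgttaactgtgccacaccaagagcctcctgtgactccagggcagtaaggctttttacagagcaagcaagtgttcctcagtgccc

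Motifs were searched on both strands in the RefSeq windows of 250 bases before to 50 after a start, of which 49 members had 63, some of them overlapping windows of one gene. The NF-kB motif searched was GGG and TTTCC with 2 bases of any kind between them, the STAT motif TTCNNNGAA, the C/EBP motif TTGCNNAA, the ETS motif AGGAAG, the AP-1 motif TGANTCA and the TATA motif TATAAA. The NF-kB letters occurred in 7 of the 63 windows (11.1%), in Il16, Il17rc, Il1rn, Il23r, Il4ra and Il6, and in 1.63% of all 32851 windows. In the Il6 window the match GGGATTTTCC begins 44 bases before the start and the C/EBP match TTGTGCAA 128 bases before it. The Il4ra match to the NF-kB letters lies 20 bases after the start and so beyond the stretch printed. STAT letters were found in 15.9% of the member windows and 8.30% of all windows, C/EBP letters in 20.6% and 10.8%, AP-1 letters in 15.9% and 7.81%, ETS letters in 38.1% and 35.4%, and TATA letters in 14.3% and 13.6%. These matches describe letters and are not measured binding sites.

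Of the 5 ligands of the IL-1 family 3 rose, Il33, Il18 and Il1b, while Il1a did not pass and Il1f9 was not tested. Il33, an alarmin that cells release on damage, had 9.66, 16.4 and 17.9 CPM in Beclin1_KO and 0.242, 0.268 and 0.499 CPM in WT. All knockout libraries were above all WT libraries, at a log2 fold change of 5.44 (SE 0.41, edgeR adjusted p = 0.000164), a 43.4-fold higher level. Il18, which the inflammasome matures, had 6.26, 4.88 and 5.13 CPM in Beclin1_KO and 0.242, 0.558 and 0.522 CPM in WT (12.2-fold, edgeR adjusted p = 0.000494). Il1b, the main secreted form of IL-1, reached 3.23, 3.71 and 6.02 CPM in Beclin1_KO and 0.991, 0.714 and 0.879 CPM in WT, which was 5.01-fold higher (edgeR adjusted p = 0.00181). Its level thus stayed well under that of its antagonist, described below. Il1a, the form that also acts from within damaged cells, had 0.671, 0.421 and 0.678 CPM in Beclin1_KO and 0, 0.156 and 0.166 CPM in WT, without overlap, and did not pass (edgeR adjusted p = 0.0589), although it did without WT replicate 1 (0.0430). Il1f9, which encodes IL-36 gamma, had 17, 5 and 52 counts in Beclin1_KO and 0, 6 and 4 counts in WT and was not tested.

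Il10, the main cytokine that restrains macrophages, had 65, 82 and 82 counts in the Beclin1_KO libraries and 0 counts in each WT library. At 1.18, 1.28 and 1.21 CPM in Beclin1_KO, it was at least 17.4-fold higher than a floor of 3 counts in each WT library (edgeR adjusted p = 0.00103). Il12b, the p40 subunit of IL-12 and IL-23, had 1.80, 1.89 and 1.98 CPM in Beclin1_KO and 0.266, 0.268 and 0 CPM in WT (10.5-fold, edgeR adjusted p = 0.0192). The partner subunits of p40 were too low in most libraries to be tested: Il12a had 33, 0 and 6 counts in Beclin1_KO and 0, 8 and 7 counts in WT, and Il23a 0 counts in every knockout library and 4, 30 and 0 counts in WT. The Il12b call was lost without Beclin1_KO replicate 2 (edgeR adjusted p = 0.0552, with 5.61e-05 to 0.0662 over all alternatives). Left without WT replicate 3, the library at 0, Il12b had a log2 fold change of 2.79 against 3.39.

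Of the other tested ligands, Il16, Il15, Il17d and Il7 rose, and Il34, Il27 and Il11 did not pass. Il16, a chemoattractant for CD4-bearing cells, had 29.2, 23.7 and 19.1 CPM in Beclin1_KO and 7.39, 5.54 and 5.58 CPM in WT (3.89-fold, edgeR adjusted p = 0.000536). Il15, which sustains NK and memory T cells, had 8.13, 5.79 and 4.75 CPM in Beclin1_KO and 1.35, 3.50 and 2.54 CPM in WT (2.52-fold, edgeR adjusted p = 0.0291). Il17d rose 2.33-fold to 3.36 ± 0.651 CPM in Beclin1_KO, against 1.44 ± 0.364 CPM in WT (SD, n = 3 each, edgeR adjusted p = 0.0163). Il7, which supports lymphocyte survival, had 0.563, 1.34 and 1.298 CPM in Beclin1_KO and 0.483, 0.357 and 0.427 CPM in WT (2.52-fold, edgeR adjusted p = 0.0496). Il34, a second ligand of the macrophage receptor Csf1r, had 12.3, 10.4 and 8.17 CPM in Beclin1_KO and 10.1, 8.08 and 5.84 CPM in WT, with overlapping groups (edgeR adjusted p = 0.27). Csf1r itself had 512, 277 and 244 CPM in Beclin1_KO and 32.7, 28.6 and 27.6 CPM in WT. Il27, the p28 subunit of IL-27, stood at 0.462 ± 0.123 CPM in Beclin1_KO and 0.102 ± 0.0970 CPM in WT and did not pass (edgeR adjusted p = 0.0908), and Il11 at 0.181 ± 0.0951 CPM in Beclin1_KO and 0.328 ± 0.123 CPM in WT likewise (0.315).

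Several of these ligand calls were lost when a library was left out, although their log2 fold changes stayed between 1.01 and 1.38 for Il15 and between 1.01 and 1.17 for Il17d in those fits. Il15 did not pass without Beclin1_KO replicate 1 (edgeR adjusted p = 0.0867), Beclin1_KO replicate 2 (0.0649), WT replicate 1 (0.0571) or WT replicate 3 (0.0889). Il7 passed only without Beclin1_KO replicate 1 among the fits that left out 1 library, and without Beclin1_KO replicates 2 or 3 or WT replicates 1, 2 or 3 its edgeR adjusted p was 0.160, 0.132, 0.0931, 0.131 and 0.121. The Il7 call was also lost with RLE scaling (edgeR adjusted p = 0.0503), upper-quartile scaling (0.0515) and no low-count filter (0.0580). Il17d did not pass without Beclin1_KO replicate 1 (edgeR adjusted p = 0.0528), Beclin1_KO replicate 2 (0.0534) or WT replicate 3 (0.0510). With Beclin1_KO replicate 1 and WT replicate 2, which held the most muscle transcripts, left out together, Il12b, Il15, Il7 and Il17d did not pass (edgeR adjusted p = 0.0662, 0.0544, 0.0637 and 0.0798), nor did the receptor chains Il12rb2 and Il20rb (0.0599 and 0.129).

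A further 6 ligands were at or near 0. Il4 had 9, 12 and 0 counts in Beclin1_KO and 0 counts in each WT library, and Il5 had 0, 0 and 4 counts in Beclin1_KO and 0, 3 and 0 counts in WT. Il17b, Il17c, Il19 and Il25 had at most 8 counts in any library. At these depths no difference in these 6 ligands was detectable, which does not show that they are absent.

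The antagonist of IL-1 was the most abundant soluble regulator of the set in Beclin1_KO tissue. Il1rn, which blocks Il1r1 without signalling, had 49.6, 57.8 and 60.3 CPM in Beclin1_KO and 2.56, 4.53 and 1.90 CPM in WT. The log2 fold change was 4.22 (SE 0.34, edgeR adjusted p = 0.000236), or 18.6-fold higher. Il1r2, a decoy receptor that binds IL-1 and does not signal, had 2.40, 2.06 and 1.52 CPM in Beclin1_KO and 0.193, 0.0893 and 0.166 CPM in WT (13.2-fold, edgeR adjusted p = 0.000814). Il18bp, the binding protein that neutralises IL-18, had 10.7, 12.5 and 16.1 CPM in Beclin1_KO and 7.51, 12.5 and 11.4 CPM in WT, with overlap, and did not pass (edgeR adjusted p = 0.311). On the authors' FPKM scale the Il18bp groups did not overlap, with 8.19, 10.4 and 12.5 in Beclin1_KO and 4.90, 7.82 and 6.59 in WT. Il18bp passed in 2 of 15 alternatives. Il22ra2, a soluble IL-22 receptor, had 13, 22 and 4 counts in Beclin1_KO and 9, 0 and 4 counts in WT, and Il13ra2, a decoy for IL-13, had 0, 0 and 10 counts in Beclin1_KO and 0 counts in each WT library. Il22ra2 did not pass (edgeR adjusted p = 0.488) and Il13ra2 was not tested.

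Receptor chains of the IL-1 family rose together. In RefSeq GRCm38.p6, 6 of them, counting the decoy Il1r2, lie side by side on chromosome 1 between 40084692 and 40551707. The protein-coding genes of this stretch of 467 kb are these 6 alone. All 6 rose, against 24.8% of all genes tested. Of the 6, Il1r2 and Il18r1 reached 10 counts in every library in Beclin1_KO only, and so entered the test through the group in which they are high. Il1r1, the signalling IL-1 receptor, had 67.3, 121 and 147 CPM in Beclin1_KO and 23.0, 25.2 and 20.2 CPM in WT (4.89-fold, edgeR adjusted p = 0.00118). The IL-18 receptor chains Il18r1 and Il18rap varied little among the knockouts. Il18r1 had 4.75, 4.76 and 4.70 CPM in Beclin1_KO and 0.290, 0.223 and 0.0950 CPM in WT, or 23.1-fold (edgeR adjusted p = 0.000326). Il18rap had 7.10, 6.597 and 7.55 CPM in Beclin1_KO and 0.628, 0.714 and 0.807 CPM in WT, or 9.85-fold (edgeR adjusted p = 0.00011). Il1rl1, the IL-33 receptor ST2, had 9.38, 9.06 and 3.94 CPM in Beclin1_KO and 1.26, 1.32 and 1.12 CPM in WT (6.05-fold, edgeR adjusted p = 0.00178). Its lowest knockout library was the one with the most Il33. Il1rl2, which binds IL-36, had 6.06, 6.41 and 5.00 CPM in Beclin1_KO and 1.38, 1.27 and 0.950 CPM in WT (4.85-fold, edgeR adjusted p = 0.000593). Il1rap, the accessory chain shared by the IL-1, IL-33 and IL-36 receptors and encoded on chromosome 16, rose 2.24-fold to 7.07 ± 1.21 CPM in Beclin1_KO, against 3.15 ± 0.816 CPM in WT (edgeR adjusted p = 0.00969). Il1rap did not pass once Beclin1_KO replicate 1 and WT replicate 2 were left out together (edgeR adjusted p = 0.0835, with 0.000160 as the lowest over the alternatives).

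In the common gamma chain group, 6 of the 8 tested receptor chains rose, Il15ra fell and Il2ra did not pass. Il7r, the IL-7 receptor alpha chain, had 56.9, 36.2 and 29.1 CPM in Beclin1_KO and 0.797, 0.893 and 0.855 CPM in WT, with a log2 fold change of 5.58 (SE 0.30, edgeR adjusted p = 6.68e-05). Il7r was highest in the first knockout library, which had the highest macrophage sum (6821 CPM) and the lowest T cell sum of the knockouts (36.9 CPM). That library also had the highest skeletal muscle sum (27583 CPM) and the lowest adipocyte sum (7750 CPM) of the knockouts, and the cell source of Il7r was not tested. Il4ra, the chain shared by the receptors of IL-4 and IL-13, had 187, 233 and 345 CPM in Beclin1_KO and 33.8, 30.7 and 33.4 CPM in WT (7.82-fold, edgeR adjusted p = 0.000212). Its partners rose too: Il13ra1 had 27.1, 30.6 and 35.8 CPM in Beclin1_KO and 2.73, 3.46 and 2.16 CPM in WT (11.2-fold, edgeR adjusted p = 9.24e-05). The common gamma chain gene Il2rg had 31.4, 35.5 and 35.5 CPM in Beclin1_KO and 8.48, 11.3 and 8.67 CPM in WT (3.60-fold, edgeR adjusted p = 0.000212). Il2rb, shared by IL-2 and IL-15, had 13.8, 18.3 and 19.2 CPM in Beclin1_KO and 1.01, 2.37 and 1.71 CPM in WT (10.1-fold, edgeR adjusted p = 0.000436). Il21r, the neighbour of Il4ra on chromosome 7, had 11.2, 15.8 and 25.0 CPM in Beclin1_KO and 0.483, 2.50 and 1.31 CPM in WT (12.1-fold, edgeR adjusted p = 0.00514). Il21r reached a log2 fold change of 4.26 without WT replicate 2, against 3.59 with it. Il2ra, the high-affinity IL-2 chain of activated and regulatory T cells, had 4.88, 5.77 and 3.67 CPM in Beclin1_KO and 3.79, 1.79 and 1.496 CPM in WT, with overlap, and did not pass (edgeR adjusted p = 0.0781), although it did without WT replicate 1 (0.0142). Il9r had at most 11 counts in any library.

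Il15ra moved against its ligand. This chain, which presents IL-15 to neighbouring cells, had 37.8, 44.5 and 51.1 CPM in Beclin1_KO and 88.4, 69.3 and 69.0 CPM in WT, without overlap (log2 fold change -0.77, SE 0.15, edgeR adjusted p = 0.0071). On the authors' FPKM scale the difference did not pass, with a log2 fold change of -0.40 and a limma adjusted p of 0.103 (0.000169 to 0.104 over all alternatives). The neighbour of Il15ra on chromosome 2 is Il2ra.

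**Figure D3:**
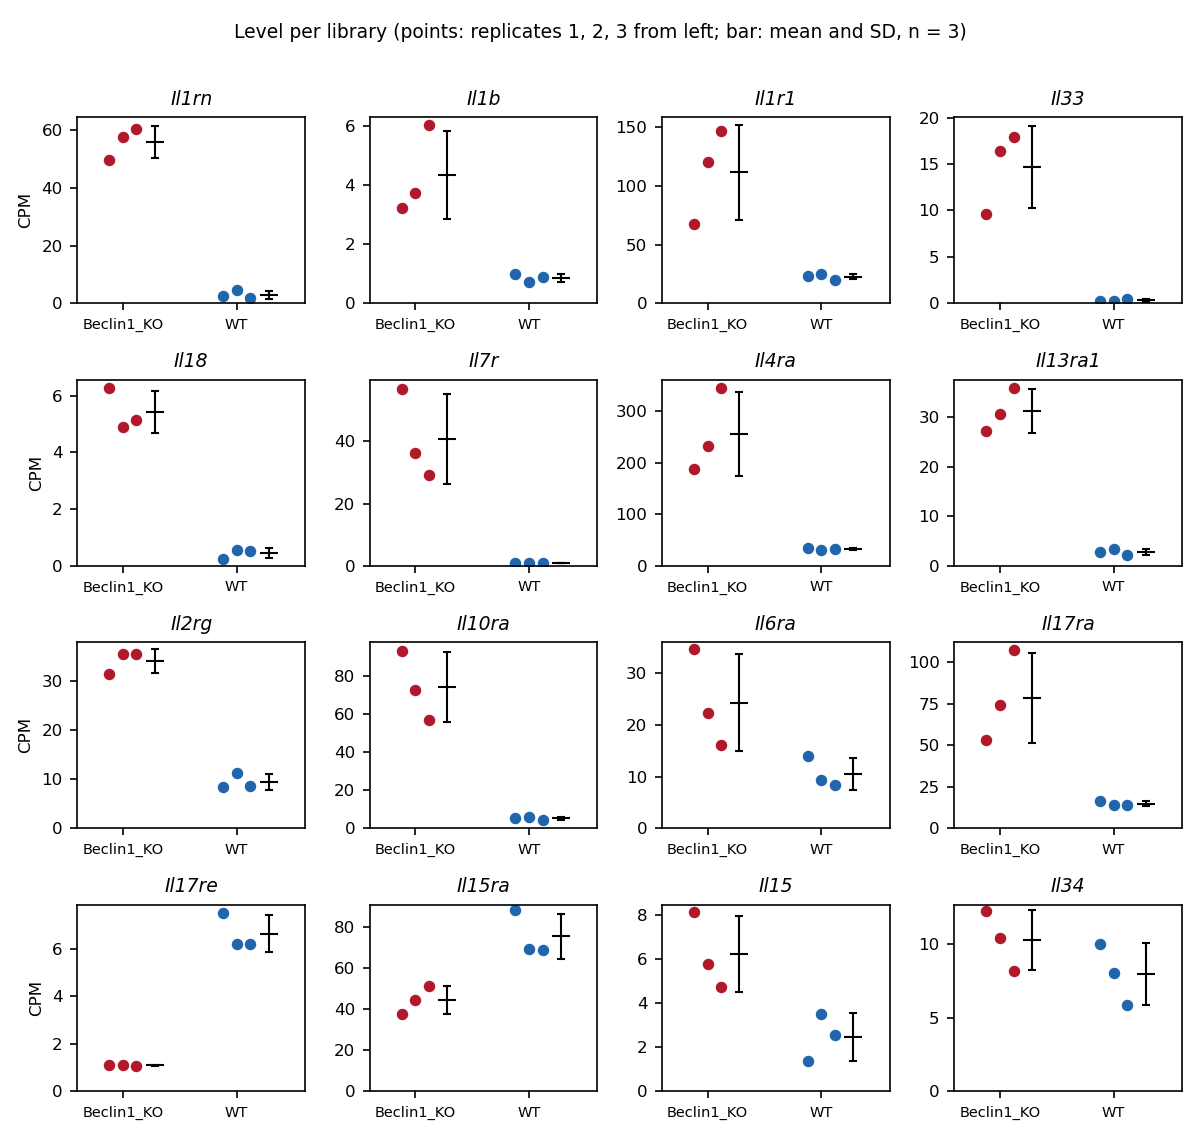
CPM of 16 members in each library (y axes start at 0), with Beclin1_KO left of WT, points for replicates 1 to 3 and a bar for the mean and SD. The groups do not overlap except for Il34, and Il17re and Il15ra are the 2 members that lie below WT in every knockout library.

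Of the receptor chains grouped in the common beta and gp130 families, Il3ra, Il6st, Il11ra1, Il27ra and Il6ra rose, Il31ra did not pass and Il5ra was not tested. Il3ra, the IL-3 receptor alpha chain, had 30.3, 19.2 and 17.7 CPM in Beclin1_KO and 6.16, 5.00 and 4.61 CPM in WT (4.27-fold, edgeR adjusted p = 0.000837), while the eosinophil-associated Il5ra had 0 counts in every knockout library and 2, 0 and 0 counts in WT. The gp130 gene Il6st, the most abundant member in every WT library by CPM, had 233, 267 and 280 CPM in Beclin1_KO and 154, 150 and 149 CPM in WT (1.72-fold, edgeR adjusted p = 0.00195). Il11ra1 had 88.3, 105 and 83.0 CPM in Beclin1_KO and 44.2, 53.1 and 52.8 CPM in WT (1.84-fold, edgeR adjusted p = 0.00208), and mouse genomes carry near-identical copies of it, so its value is uncertain. Il27ra, the IL-27 receptor chain, had 10.2, 11.6 and 9.25 CPM in Beclin1_KO and 2.49, 2.41 and 1.88 CPM in WT (4.57-fold, edgeR adjusted p = 0.000298). Il6ra had 34.6, 22.3 and 16.03 CPM in Beclin1_KO and 13.9, 9.31 and 8.31 CPM in WT (2.31-fold, edgeR adjusted p = 0.0227). That call was lost without Beclin1_KO replicate 2 (edgeR adjusted p = 0.0527), WT replicate 2 (0.0701) or WT replicate 3 (0.0782), and with Beclin1_KO replicate 1 and WT replicate 2 both left out (0.119). Il31ra stood at 0.394 ± 0.269 CPM in Beclin1_KO and 0.229 ± 0.146 CPM in WT (edgeR adjusted p = 0.423).

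For IL-10 and IL-12, receptor chains rose along with Il10 and Il12b. Il10ra, the private IL-10 chain, had 93.5, 72.9 and 57.1 CPM in Beclin1_KO and 5.68, 5.96 and 4.25 CPM in WT (14.1-fold, edgeR adjusted p = 9.08e-05). Il10rb, which other receptors of the family share, had 120, 104 and 87.1 CPM in Beclin1_KO and 54.0, 46.7 and 47.9 CPM in WT (2.09-fold, edgeR adjusted p = 0.00132). Il20rb stood at 4.24 ± 0.698 CPM in Beclin1_KO and 2.44 ± 0.356 CPM in WT (edgeR adjusted p = 0.0312), while Il20ra had at most 2 counts in any library. That call of Il20rb held without Beclin1_KO replicate 3 only, and without the other libraries its edgeR adjusted p was 0.067 and 0.106 (Beclin1_KO replicates 1 and 2) and 0.0556, 0.0716 and 0.103 (WT replicates 1, 2 and 3). Il12rb1 had 0.708, 1.14 and 2.42 CPM in Beclin1_KO and 0.169, 0.179 and 0 CPM in WT (edgeR adjusted p = 0.021), and Il12rb2 2.54, 1.33 and 1.31 CPM in Beclin1_KO and 0.483, 0.893 and 0.380 CPM in WT (0.0347). Il12rb1 did not pass without Beclin1_KO replicates 2 or 3 (edgeR adjusted p = 0.05002 and 0.0597) or WT replicate 1 (0.0556), and its log2 fold change of 3.59 was 2.96 without Beclin1_KO replicate 3 and 2.999 without WT replicate 3. Il12rb2 did not pass without Beclin1_KO replicates 1 or 2 (edgeR adjusted p = 0.115 and 0.0561) or WT replicates 1 or 3 (0.105 and 0.109). The IL-23 receptor gene Il23r had 3 counts in the third WT library and 0 in all others.

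The IL-17 receptors diverged. Il17ra, the chain that the family shares, had 53.4, 74.1 and 107 CPM in Beclin1_KO and 16.5, 14.1 and 14.2 CPM in WT (5.25-fold, edgeR adjusted p = 0.000603). Il17re, the partner chain for IL-17C, had 1.11, 1.09 and 1.05 CPM in Beclin1_KO and 7.51, 6.18 and 6.20 CPM in WT. All knockout libraries were below all WT libraries, at a log2 fold change of -2.61 (SE 0.21, edgeR adjusted p = 0.000192), or 6.12-fold lower. Its direct neighbour Il17rc, the partner for IL-17A and IL-17F, had 24.2, 22.6 and 21.9 CPM in Beclin1_KO and 23.3, 25.3 and 27.9 CPM in WT and did not pass (edgeR adjusted p = 0.291). Il17re spans 113458699 to 113470758 and Il17rc 113471455 to 113483163 on chromosome 6 (GRCm38.p6). Il17rd had 16.1, 16.1 and 11.1 CPM in Beclin1_KO and 13.1, 9.89 and 9.19 CPM in WT (edgeR adjusted p = 0.138, and 0.0431 without Beclin1_KO replicate 3), and the IL-25 receptor chain Il17rb stood at 1.22 ± 0.0773 CPM in Beclin1_KO and 1.19 ± 0.303 CPM in WT (edgeR adjusted p = 0.927).

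Both remaining members are not cytokines or receptors. Il4i1, an amino acid oxidase that antigen-presenting cells secrete, had 288, 372 and 83 counts in Beclin1_KO and 0 counts in each WT library, at least 58.2-fold higher against a floor of 3 counts in each WT library (edgeR adjusted p = 0.00356). Il1bos, which runs antisense to Il1b, had 0 counts in each Beclin1_KO library and 5, 4 and 4 counts in WT. No source used here says whether counting used the strand, so reads of Il1b and Il1bos may not be told apart. In all, 26 of the 64 members overlap another RefSeq gene, among them Il18 (Bco2 and Tex12), Il27 (Apobr), Il11ra1 (Ccl27a) and Il4i1 (Il4i1b and Tbc1d17).

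Levels can be compared between genes per length, as the authors' FPKM. Among the ligands of WT tissue Il34 stood first, with 3.998 ± 1.24 FPKM, followed by Il15 with 1.65 ± 0.722 FPKM and Il16 with 1.08 ± 0.242 FPKM (SD, n = 3 each). The SD ranges of Il15 and Il16 overlapped. In Beclin1_KO tissue Il18 (6.905 ± 0.709 FPKM), Il34 (6.48 ± 1.26), Il33 (6.44 ± 2.05), Il15 (5.36 ± 1.38) and Il16 (5.32 ± 1.06) overlapped within their SDs. By single libraries, however, Il18 (at least 6.45 FPKM) lay above Il16 (at most 6.26 FPKM) in every knockout library. Il6 had a higher mean, 26.3 FPKM in Beclin1_KO, which came from the third library alone at 78.4 FPKM. Il33 and Il18 stood at 0.109 ± 0.0364 and 0.431 ± 0.158 FPKM in WT. Among receptor chains, Il15ra came first in WT with 40.1 ± 7.94 FPKM, ahead of Il11ra1, Il6st and Il10rb at 23.3 to 24.6 FPKM. In Beclin1_KO, Il10rb, Il11ra1, Il4ra and Il6st were at 52.9 to 62.1 FPKM and overlapped, and Il15ra followed with 30.0 ± 5.02 FPKM. By mean FPKM, Il7r ranked 11 among 34 receptor chains in Beclin1_KO and 24 in WT.

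**Figure D4:**
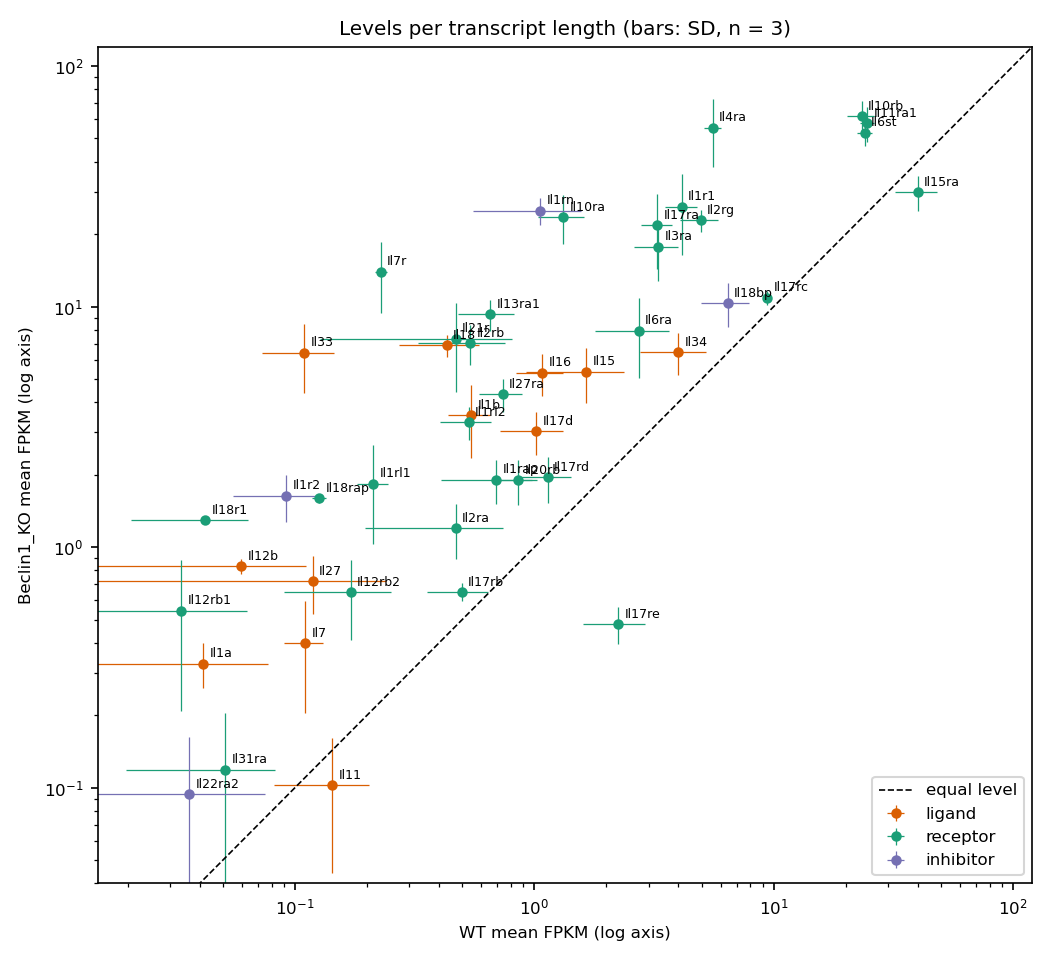
Mean FPKM in Beclin1_KO (y axis) against WT (x axis) for 46 tested members on log axes, coloured by role, with bars for the SD and a dashed line of equal level. Most points lie above the line, Il15ra (30.0 FPKM in Beclin1_KO, 40.1 FPKM in WT), Il17re and Il11 lie below it, and bars that reach past the axis are cut there.

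Ratios within a library, which do not depend on scaling between libraries, separated the groups for several of the 9 pairs computed, which were chosen after values had been seen. With 3 libraries a group, these ratios were described and not tested. The FPKM ratio of the antagonist Il1rn to Il1b was 8.36, 8.51 and 5.46 in Beclin1_KO and 1.42, 3.56 and 1.19 in WT. The ratio of Il18bp to Il18 was 1.06, 1.58 and 1.94 in Beclin1_KO and 19.2, 13.9 and 13.8 in WT. Antagonist per ligand was thus higher in every knockout library for IL-1 and lower in every knockout library for IL-18. The ratio of Il10ra to Il10rb was 0.412, 0.370 and 0.347 in Beclin1_KO and 0.0554, 0.0672 and 0.0469 in WT. Il15ra per Il15 was 3.57, 6.08 and 8.33 in Beclin1_KO and 51.8, 15.3 and 21.6 in WT. For Il6ra to Il6st the groups overlapped, with 0.240, 0.135 and 0.0924 in Beclin1_KO and 0.146, 0.09999 and 0.0900 in WT.

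Within the knockouts, members that rose did not vary together. Of 32 members called higher with a mean of at least 1 CPM, 12 were highest in the third knockout library and lowest in the first, among them Il4ra, Il1r1, Il17ra, Il33, Il1b, Il1rn and Il6st. A further 11 showed the opposite, among them Il7r, Il10ra, Il3ra, Il6ra, Il15 and Il16. These are rank orders without a size limit, and some rest on small differences. The highest knockout level was 1.10 (Il12b) to 2.24 times (Il21r) the lowest among the 12, and 1.38 (Il10rb) to 2.38 times (Il1rl1) among the 11. The summed macrophage markers were 6821, 5001 and 4070 CPM in knockout replicates 1, 2 and 3, the skeletal muscle markers 27583, 6576 and 1105 CPM, and the adipocyte markers 7750, 9876 and 14099 CPM. The part of these differences in the members' values was not tested.

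Genes of interleukin signalling and response that are not named Il were listed as receptor partners and related cytokines, signalling proteins, inhibitors and response genes. Of 95 such genes in 7 lists, 93 were tested, of which 56 were higher and 3 lower, against 24.8% higher and 21.8% lower among all genes tested, with a median log2 fold change of 0.87 against 0.05 over all genes tested. Of 17 shared receptor subunits and related cytokines, 10 rose and 1 fell (median 1.93). Csf2rb2, which in mice serves IL-3 alone, had 83.5, 83.8 and 84.1 CPM in Beclin1_KO and 3.29, 4.40 and 3.42 CPM in WT, and its close relative Csf2rb, the common beta chain, had 126, 123 and 142 CPM in Beclin1_KO and 24.6, 35.7 and 19.9 CPM in WT, although near-identical copies may share reads. Csf2ra, the GM-CSF receptor alpha chain, and Crlf2, the TSLP receptor chain, rose 11.0-fold and 3.81-fold. Ctf1, a gp130 ligand, was the member of this list that fell, with 3.28, 1.79 and 1.89 CPM in Beclin1_KO and 11.6, 8.46 and 9.55 CPM in WT.

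Of 11 JAK kinases and STAT factors, 7 rose and 1 fell (median 0.69). Stat4, which IL-12 activates, rose 10.2-fold, and Jak1, Stat3 and Stat2 rose 1.76-fold, 2.88-fold and 2.48-fold. Jak3, the kinase bound to the common gamma chain, had 112, 117 and 150 CPM in Beclin1_KO and 128, 120 and 142 CPM in WT, with overlap (edgeR adjusted p = 0.828), whereas Il2rg rose in the same libraries. Stat6, which serves IL-4 and IL-13, had 138, 122 and 116 CPM in Beclin1_KO and 92.6, 87.2 and 99.9 CPM in WT (1.35-fold, edgeR adjusted p = 0.0193), and Stat5a was the one that fell, to 57.0 ± 6.83 CPM in Beclin1_KO, against 93.5 ± 23.0 CPM in WT. Stat6 did not pass without Beclin1_KO replicate 1 or WT replicates 1 or 2 (edgeR adjusted p = 0.0536, 0.0670 and 0.0820), nor Stat5a without Beclin1_KO replicates 1 or 2 or WT replicates 2 or 3 (0.0674, 0.0774, 0.0569 and 0.0639). Of 11 signalling inhibitors, 5 rose and 0 fell (median 0.41): Ptpn6, Socs3, Socs1 and Socs2 by 12.6-fold, 13.2-fold, 6.25-fold and 2.06-fold, and Pias1 by 1.62-fold. The Socs2 call was lost without Beclin1_KO replicate 2 (edgeR adjusted p = 0.0561) or WT replicate 3 (0.0638).

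Of 19 adaptors, maturation enzymes and brakes of IL-1 and IL-17, 11 rose and 0 fell (median 0.67). The inflammasome genes led. Casp1, which cleaves the IL-1 beta and IL-18 precursors, had 29.1, 34.4 and 23.3 CPM in Beclin1_KO and 1.18, 2.28 and 1.54 CPM in WT, and Nlrp3, the sensor, 4.70, 5.16 and 3.97 CPM in Beclin1_KO and 0.580, 0.536 and 0.570 CPM in WT. Pycard and Casp4 rose 13.3-fold and 25.3-fold. Of 12 NF-kB subunits and inhibitors, 8 rose and 0 fell (median 0.50), among them Nfkbie (4.93-fold), Tnfaip3 (3.95-fold) and Nfkb2 (2.202-fold). Of 12 IL-4 and IL-13 response genes of mouse macrophages, 10 were tested and 5 rose (median 1.88): Mrc1, Tfec, Clec10a, Cd209a and Ccl22. Mrc1 also stands in the macrophage marker list, and Chil3 and Retnla of the same list stood at 0.990 ± 0.506 and 7.69 ± 3.53 CPM in Beclin1_KO and 1.19 ± 0.402 and 7.38 ± 4.55 CPM in WT without passing. Of 13 acute-phase and IL-1 or IL-6 response genes, 10 rose and 1, Orm1, fell (median 5.03, or 4.45 with the 4 genes at 0 in every WT library set to their bound), with Lcn2 at 131 ± 32.1 CPM in Beclin1_KO and 3.997 ± 0.665 CPM in WT, and Lbp at 106, 112 and 185 CPM in Beclin1_KO and 3.19, 5.00 and 3.32 CPM in WT. Orm1 stood at 42.2 ± 18.4 CPM in Beclin1_KO and 119 ± 55.9 CPM in WT, and did not pass without Beclin1_KO replicates 1 or 2 or WT replicates 2 or 3 (edgeR adjusted p = 0.115, 0.122, 0.0856 and 0.109). Cd209a had a log2 fold change of 5.03 without WT replicate 3, against 4.37 with it.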

How the data were processed

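RNA sequencing of 6 samples was used, 3 Beclin1_KO and 3 WT, grouped by their titles. Build mm10, HISAT2 2.1.0, StringTie 1.3.4d, Trimmomatic, bcl2fastq 2.20.0 and DESeq2 appear in the submitters' processing notes. Neither the annotation nor the strand setting of the counting is stated there. The authors deposited raw read counts per gene and FPKM values. They also deposited log2-scale values, a signed fold change score with its standard error, a mean signal and p-values of their comparison, of which the entry of Il6 alone is quoted.

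The main test was the robust quasi-likelihood fit of edgeR 4.0.16 (R 4.3.3) on the deposited counts, with TMM scaling, filterByExpr (15347 of 18507 genes kept) and genotype as the only term. Adjustment was by Benjamini-Hochberg over all genes tested, with a threshold of 0.05, to which "rose" and "fell" refer. The SE is the log2 fold change over the square root of F. The common dispersion was 0.110. A fold against 0 counts uses a floor of 3 counts per WT library, which covers counting error only. P-values weigh the difference between the genotypes against the spread between these samples, with 3 mice in each group. The fit was tested on simulated data.

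The members, the gene lists and the rule for named genes were chosen with earlier results of these data known. By that rule, members were named by family and role, and per list up to 4 genes of smallest p. Nfkb1, Cp and Serpina3n were also among these and are not described above. Hp, Ptx3, the genes that fell, the list members that did not pass and the ratios were chosen after their values were seen. Promoters and positions came from RefSeq (GRCm38.p6), matched by gene number. Alternatives were RLE and upper-quartile scaling, DESeq2 1.42.0, limma 3.58.1 on the FPKM values (log2 with 1 or 0.1 added, low genes left out), other filters, a replicate block, leaving out libraries and a 2-fold limit.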

Additional observations from a re-analysis of the deposited data

How the results depend on the processing

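The count of members higher, 35, was 27 to 37 over all alternatives and 27 to 34 when 1 library was left out. The count of members lower, 2, was 1 on both FPKM scales (Il15ra lost) and with a 2-fold limit, 2 without any single library, and 3 with DESeq2 and with no low-count filter. Of the 37 calls, 27 passed in every alternative that gave a value. The lists of pathway genes had 56 higher, with 40 to 60 over the alternatives and 49 to 57 without 1 library, and 3 lower, with 1 on both FPKM scales, 1 without both Beclin1_KO replicate 1 and WT replicate 2, the libraries highest in muscle markers, and 1 to 4 without 1 library. Directions reversed for 4 genes that did not pass in either direction. Il17rb, at a log2 fold change of 0.04, was at -0.0074 without Beclin1_KO replicate 3 and at -0.04 and -0.13 without WT replicates 1 and 3 (up to 0.249 without WT replicate 2). Il17rc, at -0.16, was at 0.19 and 0.21 with log2(FPKM + 1) and log2(FPKM + 0.1). Jak3, at -0.04, was at 0.29 and 0.30 on these scales and ranged from -0.182 to 0.0351 when 1 library was left out. Retnla, at 0.06, was at -0.0491 without the muscle-high libraries and from -0.358 to 0.564 when 1 library was left out. Il33 had a higher log2 fold change than Il7r without Beclin1_KO replicate 1 (5.67 against 5.26), without WT replicate 3 (5.82 against 5.57) and without the muscle-high libraries (5.53 against 5.30). The FPKM scales put the median of all genes at 0.29 and 0.33, against 0.05. Without the muscle-high libraries 27 members were higher.

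Same-numbered samples did not deviate together (correlations of -0.309, 0.0698 and 0.276 for numbers 1, 2 and 3), and not every sample correlated best with its own number. Beclin1_KO replicate 1 and WT replicate 2, the libraries highest in muscle markers, correlated at 0.459. With 3 libraries a group, these correlations cannot decide whether the numbers pair the samples, and the labels name no pairing. With the replicate number as a block, 30 members were higher and 2 lower, and 55 and 3 pathway genes, with the calls of Il12rb1, Il12rb2, Il15, Il7 and Il20rb lost (adjusted p from 0.0518 to 0.131). Depth limits the 16 untested members: 3 counts correspond to 0.0442 to 0.0725 CPM.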
